A study of Mus musculus with 14 samples.

Results

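Aquaporins are membrane pores that let water, and in some family members glycerol and other small solutes, cross cells passively. In the kidney, vasopressin binds its V2 receptor, encoded by Avpr2, on collecting duct principal cells, and the cyclic AMP signal that follows sends AQP2-bearing vesicles to the apical membrane and raises Aqp2 transcription. Water that enters through AQP2 leaves through AQP3 and AQP4 on the basolateral side. In the liver, AQP9 carries glycerol into hepatocytes for glucose synthesis, and AQP8 is a water channel of hepatocytes.

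The members were taken by gene symbol from the deposited gene count tables of the kidney and the liver: Aqp1, Aqp2, Aqp3, Aqp4, Aqp6, Aqp7, Aqp8, Aqp9, Aqp11 and Avpr2, 10 genes of the 22263 that the tables name. The kidney table of 20203 genes lists all 10. The liver table of 19660 genes lists 6, and Aqp2, Aqp3, Aqp6 and Aqp7 have no row in it.

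All RNA came from adult male mice, 12 weeks old, that carry the human angiotensinogen gene (AGT) as a transgene of the -6A haplotype. Controls and treated animals share that transgene, so no group is free of it. The normal diet groups hold 3 kidney and 4 liver libraries, and the high salt diet (HSD) groups hold 3 kidney and 4 liver libraries. The promoter and line of the transgene, the salt content and the duration of the diet are not given in the sources used here. The labels do not say whether libraries of a group came from separate animals, so p-values measure only the spread between these libraries. Normal diet liver libraries are called 1 to 4 and the high salt liver libraries HS5 to HS8, after column numbers that match no sample title.

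Kidney libraries held 16046094 to 22004927 gene counts and liver libraries 37267778 to 51487382. Transcripts of the mitochondrial genome took 23.5 to 41.2% of the kidney counts and 2.06 to 29.6% of the liver counts. The liver share was 2.30 and 2.06% in normal diet libraries 1 and 2 and 11.3 to 29.6% in the others. Hepatocyte markers summed to 60290 to 113456 CPM in liver libraries and 826 to 1627 CPM in kidney libraries. In kidney Cyp2e1 made up most of that sum, and the other 7 markers together ran from 37.0 to 104.1 CPM. The principal cell markers summed to 82.0 to 128.8 CPM in kidney and at most 0.503 CPM in liver. Proximal tubule markers summed to 24143 to 58601 CPM in kidney. In liver they summed to 0.476 to 5.72 CPM on the normal diet and 2.82 to 46.5 CPM with high salt, highest in HS7. Of these 8 markers 2 were tested in liver. Both had an unadjusted edgeR p under 0.05, as 21.2% of all tested liver genes had, and neither was called. HS5 and HS6 were closer to each other than any other liver pair of 1 diet: over genes with whole counts and a pair sum of 400 to 2000, the chi-square per gene was 1.59 for this pair and 9.83 to 62.8 for the other 11 pairs. A value of 1 is what counting error alone gives, so the pair differed by more than counting error, and results below that rest on it are also given with the pair summed to 1 library. Normal diet liver libraries 1 and 2 gave 9.83 against each other and 50.6 to 62.8 against libraries 3 and 4.

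Levels are counts of a gene per 1000000 counts of its library (CPM), scaled within each tissue by TMM, a method that aligns the bulk of genes between libraries. Members are ranked by level only as CPM per kilobase of exon. Fold changes and adjusted p-values come from edgeR's quasi-likelihood test, adjusted by Benjamini-Hochberg over all genes tested and called under 0.05. A count of 0 allows up to 3 counts, which is 0.134 to 0.189 CPM in kidney and 0.0530 to 0.0944 CPM in liver. That limit covers counting error only.

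Ranked per kilobase over the 6 kidney libraries, Aqp1, the constitutive water channel of the proximal tubule and thin descending limb, stood first at 126.5 ± 27.0 CPM per kilobase (SD, n = 6). Aqp3 followed at 24.2 ± 5.93 and Aqp2 at 18.2 ± 2.67 CPM per kilobase, and the ranges of these neighbours overlapped. Aqp6, a channel of intracellular vesicles in intercalated cells, lay at 6.33 ± 2.27 CPM per kilobase and Aqp4 at 5.33 ± 3.36. Aqp7, a glycerol channel of the last proximal tubule segment, lay at 3.32 ± 0.635 CPM per kilobase, Aqp11, an intracellular channel of the proximal tubule, at 3.30 ± 0.482 and Avpr2 at 2.39 ± 0.483. From Aqp6 to Avpr2 each range overlapped that of its neighbour, while Aqp6, at the upper end, did not overlap Avpr2 and lay above Aqp7 and Aqp11 in all 6 libraries. Aqp1 did not overlap Aqp3, Aqp2 did not overlap Aqp6, and Avpr2 did not overlap Aqp8. Aqp8 and Aqp9 were at 0.103 and 0.0474 CPM per kilobase, with 0 to 6 and 1 to 9 counts in a library.

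**Figure D1:**
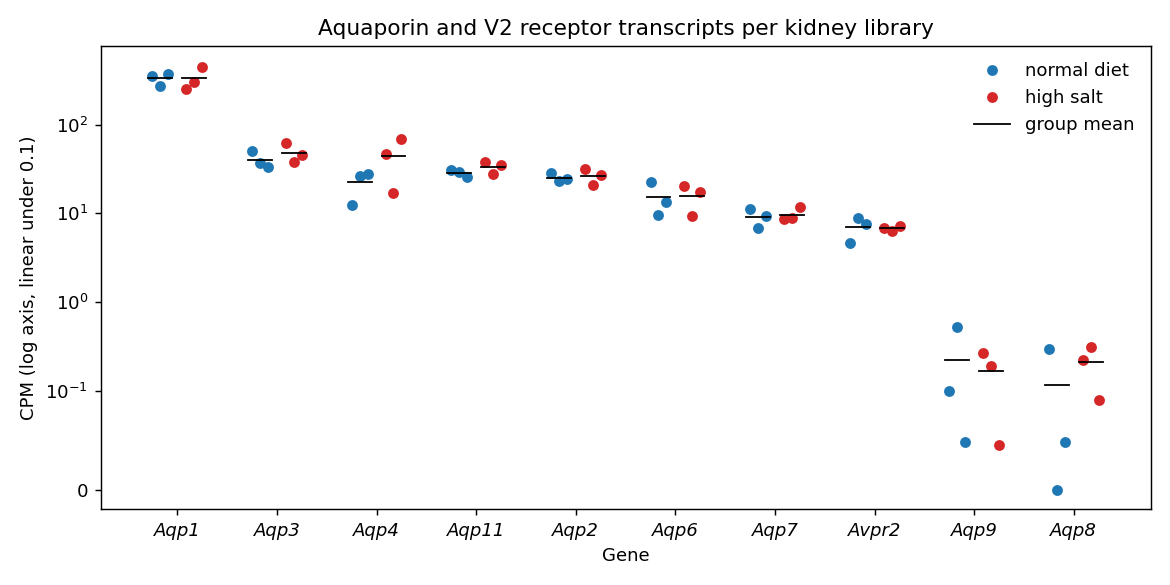
Levels of the members in each kidney library, in CPM on an axis that is logarithmic above 0.1 and linear below, with normal diet and high salt libraries as separate points and lines at the group means. Points of the diets overlap for every gene shown, and of the 8 tested genes Aqp4 has the highest ratio of its highest to its lowest value, from 12.5 to 68.6 CPM.

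Of the 10 members, 8 passed the filter on low counts in kidney, and Aqp8 and Aqp9 did not. None of the 8 was called between the diets, where 0 of 15847 genes (0%) were called, and none had an unadjusted p under 0.05, which 318 genes (2.01%) had. DESeq2 called 11 kidney genes and no member. In no member did the diets separate without overlap, which 6.92% of all tested genes did. The median log2 fold change of the 8 members was 0.075, beside -0.025 over all tested genes, and 7 of the 8 values lay above 0, where 46.3% of all genes did. The adjusted p was 0.9996 for each of the 8. Normal diet kidney library 1 stood apart, with a chi-square per gene of 48.2 against libraries 2 and 3, which gave 4.19 against each other. Without it 2627 of 16146 genes had an unadjusted edgeR p under 0.05, beside 211 to 445 genes without another kidney library. With library 1 left out 0 genes were called, and none of the 8 members had an unadjusted p under 0.05. Without high salt library 2 instead, 1 of the 8 had an unadjusted edgeR p under 0.05, beside 445 of 16310 genes. None was called there.

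Aqp2, the vasopressin-regulated apical channel, is shown first with its promoter because the pathway is best known for acting on it. The gene lies at chr15:99579055-99584548 (mm10, + strand). Its promoter, and those of Aqp6 and Aqp3, are printed because the levels of these genes were highest in the same kidney libraries. Aqp11 was highest in those libraries too, and its promoter, which held 0 matches to the motifs searched, is not printed. The RefSeq promoters (GRCm38.p6) run from 250 bases before to 50 bases after the start, on the strand of the gene.
Aqp2, chr15:99578806-99579105: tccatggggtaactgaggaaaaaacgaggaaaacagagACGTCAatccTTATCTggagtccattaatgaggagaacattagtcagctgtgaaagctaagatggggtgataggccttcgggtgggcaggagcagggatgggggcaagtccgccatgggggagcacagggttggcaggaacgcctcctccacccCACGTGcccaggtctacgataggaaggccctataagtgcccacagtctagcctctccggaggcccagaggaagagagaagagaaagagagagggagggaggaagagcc
Aqp6, chr15:99600950-99601249: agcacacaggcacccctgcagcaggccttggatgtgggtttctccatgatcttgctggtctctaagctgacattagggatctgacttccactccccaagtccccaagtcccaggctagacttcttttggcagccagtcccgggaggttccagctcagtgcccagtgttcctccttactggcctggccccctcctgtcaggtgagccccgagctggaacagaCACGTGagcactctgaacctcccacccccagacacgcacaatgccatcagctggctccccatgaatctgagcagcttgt
Aqp3, chr4:41098134-41098433: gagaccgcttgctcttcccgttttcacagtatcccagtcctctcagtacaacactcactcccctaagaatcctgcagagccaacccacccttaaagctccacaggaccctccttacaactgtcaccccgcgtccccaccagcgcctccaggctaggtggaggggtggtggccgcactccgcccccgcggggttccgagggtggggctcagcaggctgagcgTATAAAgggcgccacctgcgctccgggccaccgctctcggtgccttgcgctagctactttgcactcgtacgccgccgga
Capitals mark matches to the motifs searched on both strands. In the Aqp2 promoter ACGTCA, the core of the cyclic AMP response element, begins 212 bases before the start. TTATCT, the reverse complement of the GATA motif AGATAA, begins 202 bases before the start and the E-box CACGTG 58 bases before it. The Aqp6 promoter holds CACGTG 29 bases before the start, and the Aqp3 promoter holds TATAAA 29 bases before it. The start used for Aqp6 is that of RefSeq, and in GENCODE the gene begins at chr15:99601400, beyond the end of the printed stretch. Of all 32851 mouse promoters of this length in the table, 7.51% hold ACGTCA, 11.2% AGATAA, 7.15% CACGTG and 13.6% TATAAA. The full response element TGACGTCA, held by 1.79% of promoters, was in none of the 11 member promoters. A match is a description of letters and not a site. Aqp2 and Aqp6 are neighbours on chromosome 15, 16.9 kilobases apart by GENCODE gene position, and Aqp7 and Aqp3 lie 44.6 kilobases apart on chromosome 4.

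Aqp2 measured 28.3, 23.2 and 24.2 CPM in normal diet kidney libraries 1 to 3 and 31.2, 20.8 and 27.2 CPM in high salt libraries 1 to 3. The high salt libraries held both the highest and the lowest value, with the normal diet ones between. The log2 fold change was 0.067 (standard error 0.21, unadjusted p = 0.757, edgeR adjusted p = 0.9996), and its 95% interval ran from 0.752-fold to 1.46-fold.

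Aqp3, the basolateral exit channel that also passes glycerol, measured 50.8, 36.5 and 33.0 CPM on the normal diet and 62.0, 37.7 and 45.0 CPM with high salt. The high salt mean was higher, 48.3 ± 12.5 against 40.1 ± 9.42 CPM (SD, n = 3 each), and the groups overlapped. The interval of the fold was 0.797 to 1.82, around a log2 fold change of 0.27.

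Aqp4, the other basolateral water channel of principal cells, ran from 12.5 to 68.6 CPM, and its 5.47-fold ratio of highest to lowest library was the largest of the 8 tested members. It measured 12.5, 26.6 and 28.0 CPM on the normal diet and 46.5, 16.9 and 68.6 CPM with high salt. High salt libraries 1 and 3 lay above every normal diet library, and high salt library 2 lay within them. Its log2 fold change was 0.98 (standard error 0.50, unadjusted p = 0.0849, edgeR adjusted p = 0.9996), the smallest unadjusted p of the 8 members, with an interval of 0.890-fold to 4.35-fold. With 1 library left out at a time the log2 fold change ran from 0.51 to 1.36, and the gene was not called.

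Avpr2 measured 4.60, 8.78 and 7.50 CPM on the normal diet and 6.88, 6.30 and 7.27 CPM with high salt. All 3 high salt values fell inside the range of the normal diet. The log2 fold change was -0.027 and the fold interval 0.637 to 1.51. Avpr2 lies at chrX:73892102-73895503 (mm10, + strand) and shares exonic sequence with Arhgap4, a gene named here after its values were seen. No strand setting is given in the sources used here, so reads in the shared stretch cannot be assigned to one gene with certainty. Arhgap4 ran from 0.893 to 2.33 CPM in kidney.

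Aqp1 measured 352, 271.4 and 370 CPM on the normal diet and 253, 303 and 444 CPM with high salt. The means, 331 ± 52.7 and 334 ± 98.8 CPM (SD, n = 3 each), were within 1 SD of each other, and the fold interval was 0.657 to 1.54. The highest and the lowest value both came from high salt libraries.

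Aqp6 measured 22.4, 9.55 and 13.4 CPM on the normal diet and 20.1, 9.26 and 17.4 CPM with high salt, with a fold interval of 0.564 to 1.89. Aqp7 measured 11.1, 6.85 and 9.39 CPM on the normal diet and 8.53, 8.76 and 11.7 CPM with high salt, with an interval of 0.710 to 1.58. For Aqp11 the values were 30.8, 29.0 and 25.8 CPM on the normal diet and 37.5, 27.9 and 35.4 CPM with high salt, with an interval of 0.868 to 1.60. The diets overlapped in each of these 3 genes.

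**Figure D2:**
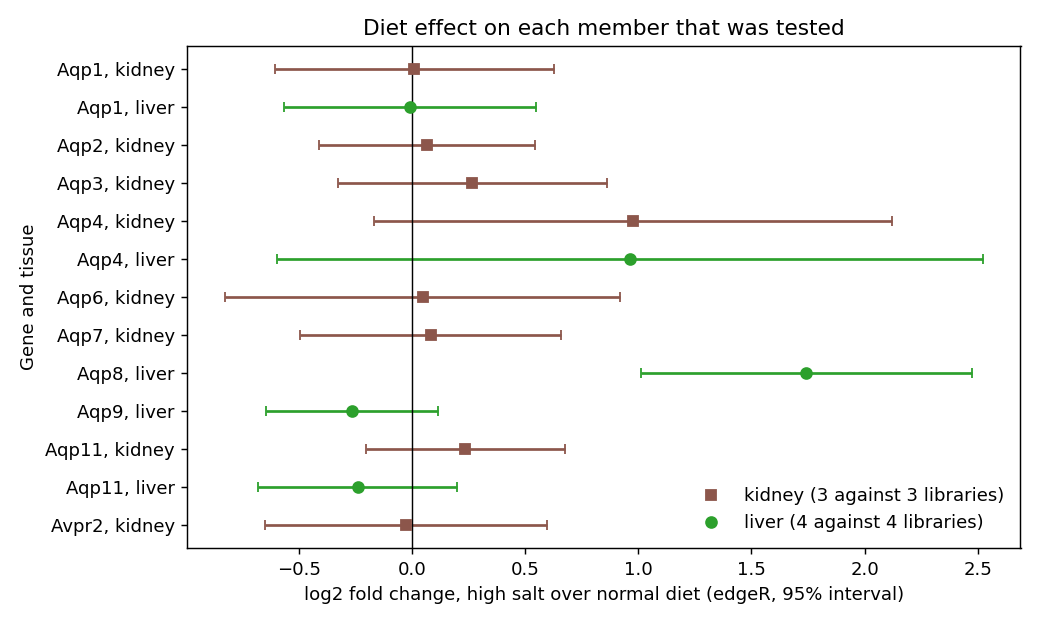
Log2 fold change of high salt against normal diet for each tested member, with its 95% interval, in kidney and in liver. Every kidney interval and all liver intervals but that of Aqp8 cross 0, and Aqp8 in liver lies at 1.74.

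The same libraries were high for several members. Normal diet library 1, high salt library 1 and high salt library 3 gave the 3 highest values of Aqp2, Aqp3, Aqp6 and Aqp11. Aqp1, Aqp4, Aqp7 and Avpr2 did not have that order, and Avpr2 was lowest in normal diet library 1. Kap, an androgen-responsive proximal tubule gene and the most abundant of the proximal tubule markers, was at 19940, 28501 and 36329 CPM in those 3 libraries and at 53463 to 55674 CPM in the others. The other 7 proximal tubule markers together went the opposite way, with 4202, 3854 and 3784 CPM against 2796 to 3229 CPM. The part of these differences in the member values was not tested. In a bulk sample fewer cells of a type and less RNA per cell cannot be told apart.

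All 8 principal cell markers (Scnn1b, Scnn1g, Fxyd4, Hsd11b2, Tmem45b, Kcne1, Gata3 and Elf5) were in the kidney table, none was called, and their median log2 fold change was 0.13. Their summed level was 128.8, 97.7 and 82.0 CPM on the normal diet and 122.6, 109.7 and 110.2 CPM with high salt. Aqp2 amounted to 22.0, 23.7 and 29.5% of that sum on the normal diet and to 25.4, 19.0 and 24.7% on high salt. The log2 difference of this ratio, high salt minus normal diet, was -0.12 (two-sided exact permutation p = 0.6, n = 3 each, where the smallest p possible is 0.1). Without high salt library 2 it was 0.011. Intercalated cell markers summed to 156 to 173 CPM on the normal diet and 133 to 158 CPM with high salt.

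**Figure D3:**
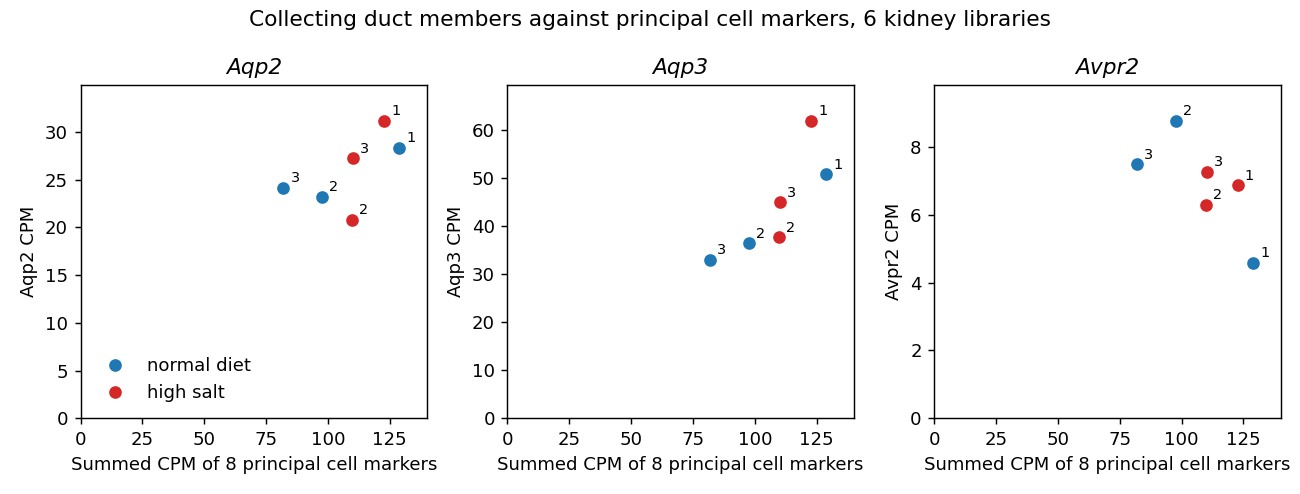
Aqp2, Aqp3 and Avpr2 in CPM against the summed CPM of 8 principal cell markers in the 6 kidney libraries, with the diets in separate colours and the library number beside each point. Normal diet library 1 and high salt library 1 have the highest marker sums, 128.8 and 122.6 CPM, and the highest Aqp2 and Aqp3, while Avpr2 is lowest in normal diet library 1.

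The genes that carry the vasopressin signal inside the cell were read from a list of 17, from the G protein subunit gene Gnas through adenylyl cyclases, protein kinase A subunits and its anchors to phosphodiesterases and arrestins. In kidney none was called, 5 values lay above 0 and 12 below, and the median was -0.055 on the log2 scale. The 3 smallest unadjusted p-values belonged to Arrb2 (4.48 to 5.60 CPM), Pde4d (6.62 to 5.19 CPM) and Gnas (207 to 249 CPM), where each pair gives the normal diet and the high salt mean.

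Of 16 genes for the traffic and turnover of AQP2 vesicles none was called in kidney, 3 lay above 0 and 13 below, with a median of -0.082. Stx4a, a plasma membrane syntaxin, had means of 9.83 and 11.9 CPM on the normal diet and with high salt, Rab11fip2, which links recycling vesicles to myosin, 17.2 and 14.9 CPM, and Snap23, a membrane fusion protein, 100.4 and 82.2 CPM. None of the 10 listed transcription factors of Aqp2 was called, with Gata2 at 5.34 and 6.47 CPM, Creb1 at 22.2 and 19.8 CPM and Elf5 at 0.855 and 1.29 CPM. Among the genes of urea transport and glycerol use, Slc14a1, the urea transporter of the vasa recta, had means of 2.13 and 3.19 CPM and Slc14a2, that of the collecting duct and thin limb, 2.40 to 9.34 CPM in the normal diet libraries and 7.06 to 11.5 CPM in the high salt ones. Gpd1, glycerol-3-phosphate dehydrogenase, had 90.1 and 107 CPM. None of these passed the test in kidney.

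The V1a receptor gene Avpr1a, through which vasopressin acts on vessels and hepatocytes, was at 3.43 CPM in kidney on the normal diet and 2.62 CPM with high salt, a log2 fold change of -0.39 that was not called. In liver it was at 7.63 and 6.79 CPM, also not called. Mip, Aqp5, Aqp12 and Avpr1b have no row in either count table.

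In liver the order per kilobase was Aqp9 at 84.7 ± 13.2 CPM per kilobase (SD, n = 8), Aqp8 at 41.8 ± 31.8, Aqp1 at 21.2 ± 5.57, Aqp11 at 2.69 ± 0.552, Aqp4 at 0.250 ± 0.130 and Avpr2 at 0.0285. The range of Aqp8 overlapped that of Aqp9 above it and of Aqp1 below it. These means pool the diets. On the normal diet Aqp8 lay at 25.9, 20.9, 14.2 and 15.9 CPM per kilobase in libraries 1 to 4. Aqp1 lay at 17.6, 18.4, 31.4 and 17.6 there, above Aqp8 in libraries 3 and 4. Aqp8 lay above Aqp1 in every high salt library, so its second place depends on those libraries. Aqp11 overlapped neither neighbour. Avpr2 had at most 11.3 counts in a liver library and was not tested, and Arhgap4, with which it shares exonic sequence, ran from 1.17 to 4.47 CPM there.

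**Figure D4:**
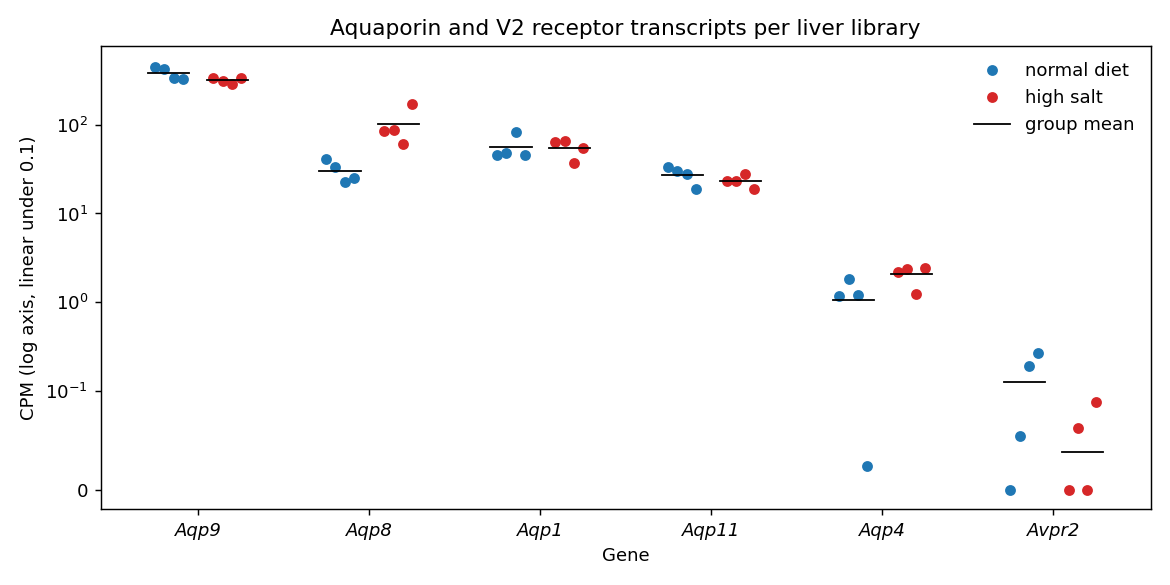
Levels of the members in each liver library, in CPM on an axis that is logarithmic above 0.1 and linear below, with the diets as separate points and lines at the group means. Of the genes shown, Aqp8 has its diets apart, at 22.4 to 41.0 and 61.2 to 173 CPM.

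Of the 6 liver members 5 were tested and 1 was called, Aqp8, where 152 of 15130 genes (1%) were called and 0.595% were called higher on high salt. Aqp8 was also the single tested member whose diets did not overlap, which 12.5% of all genes showed. The median log2 fold change of the 5 was -0.010, beside -0.023 over all genes, with 2 values above 0 and 3 below.

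Aqp8 rose 3.35-fold on high salt. It measured 41.0, 33.1, 22.4 and 25.1 CPM in normal diet libraries 1 to 4 and 84.6, 87.4, 61.2 and 173 CPM in HS5 to HS8. Every high salt library lay above every normal diet library, and HS8 was the highest. The log2 fold change was 1.74 (standard error 0.33, edgeR adjusted p = 0.0449), and the 95% interval of the fold was 2.01 to 5.56. The call is near its threshold. Its log2 fold change was 1.91 without normal diet library 1 (adjusted p = 0.0909), 1.78 without library 2 (0.0991), 1.65 without library 4 (0.0519), 1.82 without HS5 (0.146), 1.81 without HS6 (0.157) and 1.36 without HS8 (0.102), and in none of these was the gene called. With HS5 and HS6 summed it was 1.81 (adjusted p = 0.145).

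Aqp8 lies at chr7:123462291-123468005 (mm10, + strand). Its promoter is shown because it is the 1 member called between the diets.
Aqp8, chr7:123462044-123462343: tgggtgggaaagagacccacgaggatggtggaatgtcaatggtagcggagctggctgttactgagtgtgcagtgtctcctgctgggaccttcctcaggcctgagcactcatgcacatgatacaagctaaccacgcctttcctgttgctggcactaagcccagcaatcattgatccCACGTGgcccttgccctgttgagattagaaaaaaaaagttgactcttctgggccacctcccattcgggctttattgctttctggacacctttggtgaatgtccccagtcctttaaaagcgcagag
The capitals mark the E-box CACGTG, 75 bases before the start, 1 of 3 member promoters of 11 that hold it, with those of Aqp2 and Aqp6. Over all promoters the share is 7.15%. The sterol response element motif TCACNCCAC, present in 1.24% of promoters, was not found in these 300 bases.

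Aqp9, the hepatocyte glycerol channel, had the highest mean level per kilobase of the liver members over the 8 libraries, and in HS8 Aqp8 lay above it. Aqp9 measured 447, 422, 334 and 328 CPM on the normal diet and 337, 313, 287 and 337 CPM with high salt. Normal diet libraries 1 and 2 lay above all others, and libraries 3 and 4 lay among the high salt values. Libraries 1 and 2 were also those with the low mitochondrial share, and the part of that difference in the Aqp9 values was not tested. Its log2 fold change of -0.27 (standard error 0.17) was not called (adjusted p = 0.388), and the fold interval was 0.640 to 1.08.

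In CPM per kilobase Aqp8 amounted to between 17.6 and 24.0% of the Aqp9 level in the 4 normal diet libraries and to 65.9, 73.1, 55.8 and 134.9% on high salt. Of the summed aquaporin level per kilobase, Aqp8 made up 11.0 to 16.7% on the normal diet and 30.9 to 51.2% on high salt, and Aqp9 67.9 ± 3.70% and 47.8 ± 7.30% (SD, n = 4 each). These shares come from the same libraries and contrast as the Aqp8 call and add no test to it. In kidney Aqp1 held 67.3% of the summed level on average.

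**Figure D5:**
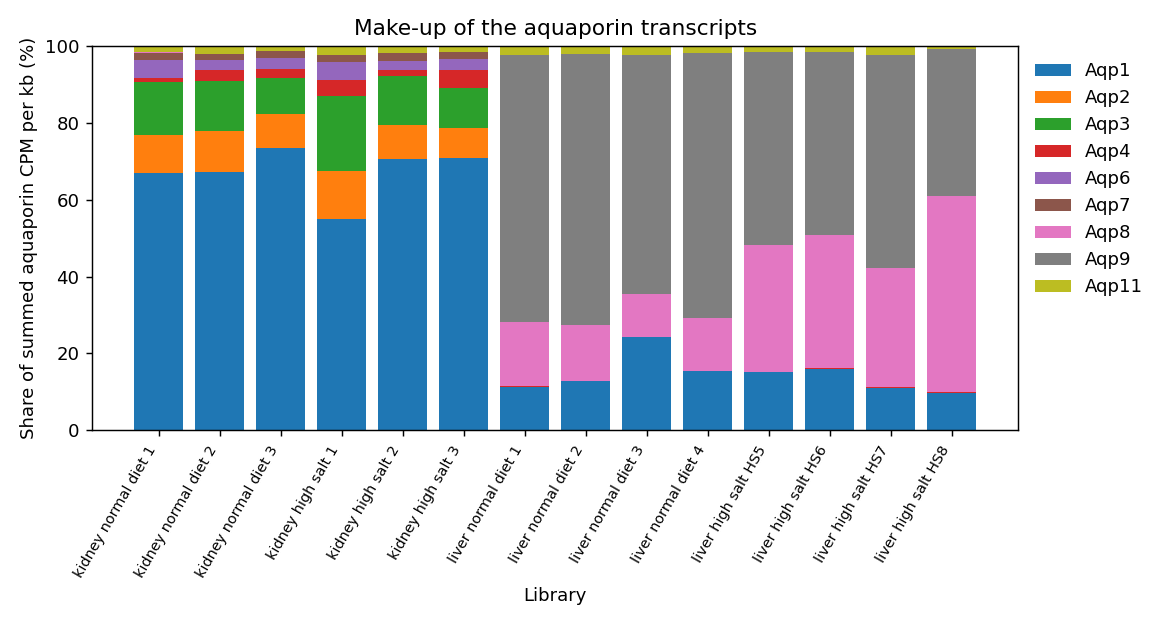
Share of each aquaporin in the summed CPM per kilobase of all aquaporins, in percent, as a stacked bar for each library of both tissues. In liver the Aqp8 share is 11.0 to 16.7% on the normal diet and 30.9 to 51.2% on high salt, and in kidney Aqp1 is the largest share in all 6 libraries.

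Aqp1 in liver, where it is known from bile duct epithelium, endothelium and red cells, measured 46.1, 48.3, 82.4 and 46.2 CPM on the normal diet and 64.0, 66.4, 36.6 and 54.4 CPM with high salt. Library 3 held the highest value and HS7 the lowest, and the groups overlapped, with a fold interval of 0.675 to 1.46. Of 6 red cell markers 5 were in the table. These 5 had log2 fold changes below 0 and an unadjusted edgeR p under 0.05, which 21.2% of all tested liver genes had. None was called, and their sum ran from 725 to 1937 CPM on the normal diet and from 271 to 720 CPM with high salt. Cholangiocyte markers summed to 32.2 to 47.5 and 28.8 to 52.0 CPM, and endothelial markers to 29.6 to 72.0 CPM on the normal diet and at most 73.2 CPM with high salt. Their part in the Aqp1 values was not tested. Of the 8 hepatocyte markers none was called, 2 had log2 fold changes above 0 and 6 below, and the median was -0.30. Alb, the albumin gene, ran from 32441 to 50637 CPM on the normal diet and from 67824 to 85226 CPM with high salt, while the other 7 together ran from 27849 to 43300 CPM and from 26728 to 28230 CPM. Log2 fold changes of the 8 ran from -0.87 to 0.76. An unadjusted edgeR p under 0.05 was found for 3 of the 8 and for 21.2% of all tested liver genes. Cyp2e1, at -0.87, and Serpina1c, at -0.63, were among the 3. The part of the hepatocyte markers in the Aqp8 and Aqp9 values was not tested.

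Aqp11 measured 33.4, 29.8, 27.6 and 19.1 CPM on the normal diet and 23.2, 23.2, 27.9 and 18.7 CPM with high salt, overlapping groups with an adjusted p of 0.493. Aqp4 was low, at 1.19, 1.83, 1.20 and 0.024 CPM on the normal diet, the last from 1 count in library 4, and at 2.17, 2.38, 1.25 and 2.42 CPM with high salt. Its log2 fold change of 0.96 (standard error 0.70) was not called (adjusted p = 0.444).

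Of the 17 vasopressin signalling genes, none was called in liver, although all 17 values lay above 0, where 48% of all tested genes did, with a median of 0.42 and 4 unadjusted p-values under 0.05, which 21.2% of all genes had. The 3 smallest belonged to Pde3a, a phosphodiesterase, at 0.779 ± 0.196 and 1.71 ± 0.314 CPM, Akap11, a kinase anchor, at 15.6 and 22.7 CPM, and Adcy6, an adenylyl cyclase, at 17.8 and 30.8 CPM on the normal diet and with high salt. Their adjusted p-values were 0.0773, 0.107 and 0.146. The traffic genes split evenly, 8 above 0 and 8 below, with a median of -0.052 and none called. Vamp8, Vamp3 and Vta1 had log2 fold changes of -0.59, -0.49 and -0.51 with adjusted p-values of 0.162, 0.171 and 0.198.

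Of the listed transcription factors of Aqp2, 7 were tested in liver and 1 was called, where 1% of all genes were called. Tfcp2l1, a factor of collecting duct cells that is low in liver, rose on high salt. Its means were 2.03 ± 0.606 CPM on the normal diet and 5.17 ± 0.940 CPM with high salt (SD, n = 4 each), and the log2 fold change was 1.35 (standard error 0.26, edgeR adjusted p = 0.0451). Its ranges, 1.47 to 2.74 and 3.93 to 6.02 CPM, did not overlap, as in 12.5% of all genes. The gene was not called without normal diet library 1 (1.22, adjusted p = 0.107), library 2 (1.25, 0.108), HS5 (1.27, 0.184), HS6 (1.29, 0.190), HS7 (1.45, 0.0507) or HS8 (1.37, 0.132), nor with HS5 and HS6 summed (1.28, 0.181). Gata2, at 0.199 and 0.469 CPM (edgeR adjusted p = 0.152), was not called. Aqp2 itself has no row in the liver table.

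For the glycerol that AQP9 carries, Gpd2, the mitochondrial glycerol-3-phosphate dehydrogenase, had means of 16.0 and 33.7 CPM (log2 fold change 1.08, adjusted p = 0.0551). Gpd1, the cytosolic enzyme, ran from 140 to 194 CPM and from 142 to 332 CPM (0.76, adjusted p = 0.162), and Gk, glycerol kinase, 48.0 and 44.2 CPM (-0.12, adjusted p = 0.699). None of these 3 was called.

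The tissues were compared on the normal diet in a single model of all 14 libraries, limited to the 17600 genes that both tables list. Aqp1, Aqp4 and Aqp11 passed the filter on low counts in both tissues, and 2 of these 3 were called, where 65.1% of 16633 genes were called, 32.2% higher and 32.9% lower. Aqp1 was 4.10-fold higher in kidney (log2 2.04, standard error 0.28, adjusted p = 1.46e-05) and Aqp4 14.4-fold higher (log2 3.85, standard error 0.67, adjusted p = 0.000129). Avpr2, Aqp8 and Aqp9 did not pass that filter in the tissue where they are low and entered the model through the other tissue, so they had to differ, and their levels are given as a description. Avpr2 had 397 counts in the 3 kidney libraries and 19 in the 4 liver libraries, a ratio of 37.8 per unit of depth. Its interval was 23.9 to 63.5 for counting error only and 14.1 to 100.3 for the spread over libraries, and without normal diet liver library 4 the ratio was 64.1. Aqp8 had 7 kidney and 4693 liver counts, a ratio of 370 towards liver, with a counting interval of 179.5 to 921 and an interval over libraries of 135 to 938. Of the 7 counts 6 came from normal diet kidney library 1, and without it the ratio was 1691 on 1 count, with a counting interval of 303 to 66792. Aqp9 had 12 and 58578 counts, a ratio of 2695 with a counting interval of 1543 to 5216 and an interval over libraries of 1073 to 6222. Of the 12 counts 9 came from normal diet kidney library 2, and without it the ratio was 7588 on 3 counts, with a counting interval of 2596 to 36795. Aqp11 was not called, with a log2 difference of -0.50 (adjusted p = 0.0544), and it was called without normal diet liver library 4 (-0.65, adjusted p = 0.00691). Tissue tables were deposited apart, so differences of processing between them and of tissue cannot be told apart in this contrast.

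Whether the diet effect differed between kidney and liver was tested as the interaction in the same fit, where 0 of 16633 genes (0%) were called by edgeR, 1681 (10.1%) had an unadjusted p under 0.05, and DESeq2 called 145. None of the 6 members was called by either. Aqp11 had the smallest unadjusted p, 0.130, for a difference of 0.48 on the log2 scale with a standard error of 0.30. Aqp8, Aqp9 and Avpr2 were near the counting limit in 1 of the tissues, so whether the liver rise of Aqp8 differs from kidney cannot be read from these data.

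The genes whose log2 CPM followed 4 of the members most closely were taken from those with a mean of at least 10 CPM in the tissue. Over the 6 kidney libraries Aqp2 was closest to Ankrd12, Irf2bp2 and Mkln1, with Pearson r of 0.984, 0.983 and 0.981 among 7394 genes. Avpr2 was closest to Slc43a3, Mtfmt and Plbd1 (0.989, 0.983 and 0.980). Over the 8 liver libraries Aqp9 was closest to Lonp2, Gid8 and Med8 (0.988, 0.984 and 0.973), and Aqp8 to Atp7b, Elovl5 and Usf2 (0.984, 0.960 and 0.951). With so few libraries and so many genes these are a description of likeness. The libraries of a tissue include both diets and differ in depth, so a difference between the diets enters these values. The part of diet and depth in them was not tested.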

How the data were processed

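Liver and kidney RNA was sequenced with a SMARTer mRNA kit, per the labels. The authors deposited expected counts per gene, estimated by expectation-maximisation, per the file headers, so that 64.1% of kidney and 58.5% of liver values were whole. A second set of tables from the authors holds normalized signal values, whose method is not given in the sources used here, and these served only as an alternative. Partek 7.0, STAR 2.5.3a, DESeq2 and the build mm10 are named in the submitters' processing notes, with no roles. No gene of the count tables totals under 10 counts. Per-sample columns not used numbered 0.

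Columns were matched to samples by title, and high salt liver columns to their diet group only. After rounding the expected counts, edgeR 4.0.16 (quasi-likelihood, TMM, filterByExpr, no replicate block) in R 4.3.3 was run with diet as the single term for kidney and for liver, and with 4 groups for tissue and interaction. Calls are Benjamini-Hochberg adjusted p-values under 0.05. Exonic lengths and overlaps are from GENCODE M21. Promoters are from RefSeq (GRCm38.p6), where 9 of the 10 members matched, and 9 motifs were searched.

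The members and lists were chosen with earlier results of these data known. Every member was named, and of the other lists the genes called plus, per list and tissue, the 3 with the smallest unadjusted p, of which 1 is not reported here. For 4 members the 3 genes of most similar pattern were named. Elf5 and Gata3 stand in both the principal cell and the transcription factor list, and Creb1 in the signalling and transcription factor lists. Slc14a2 stands in the urea transport and glycerol list and among the thin limb markers. Of the markers of thin limb, adipocytes, pancreas, muscle and adrenal cortex, none was called in either tissue.

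Replicate spread limits most genes, with a common biological coefficient of variation of 0.2998 in kidney and 0.314 in liver. Simulated counts, with 200 genes altered by 2 log2 units, tested the fits. The kidney fit found 160 of them among 15847 genes, with 18 false calls, and the liver fit 173 among 15130 genes, with 5. Among 16633 genes the tissue contrast found 156 and the interaction 96, with 7 and 3 false calls. Simulated libraries were drawn independently, without the likeness between some libraries that the real ones have. For the tissue contrast only the 200 altered genes differed, where 65.1% of genes were called in the data. These counts therefore do not give the rate of missed or false calls in the real libraries. Alternatives were RLE scaling, DESeq2 1.42.0, no filter, removal of mitochondrial transcripts, a floor of 10 counts per library, limma 3.58.1 on log2 of the normalized values with pseudocounts of 1 and 0.1, HS5 and HS6 summed, the replicate block, and leaving out each library or normal diet liver libraries 1 and 2 together. Leaving out normal diet liver library 4 and HS8 together was chosen after seeing the data.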

Additional observations from a re-analysis of the deposited data

Results flagged for a closer look

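Aqp1 in normal diet liver library 3, at 82.4 CPM, stood apart from the other normal diet liver libraries, which lay at 46.1 to 48.3 CPM. Its gap to the nearest of them, as a share of the range of the 4, was above Dixon's 95% critical value. Of 12 groups of 4 checked this was the 1 found, and chance gives about 1 in 20. Without this library the log2 fold change of Aqp1 in liver was 0.23 and not called.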

How the results depend on the processing

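The rise of Aqp8 in liver kept its direction under all 18 alternatives, with log2 fold changes from 1.28 to 2.10, and passed the threshold in 7 of them. It did not pass with HS5 and HS6 summed (1.81), without normal diet libraries 1 and 2 together (2.10, adjusted p = 0.0874 by edgeR), on the authors' normalized values with pseudocounts of 1 (1.66, limma adjusted p = 0.0677) and 0.1 (1.66, 0.0747), or without normal diet library 4 and HS8 together (1.28, edgeR adjusted p = 0.107), so the number of liver members called was 0 in each of these 5. Leaving out 1 library at a time gave 0 to 1 called liver members. Tfcp2l1 kept its direction in 18 of 18 (1.03 to 1.51) and passed in 7. The number of liver genes called was 1122 with DESeq2, 12 with HS5 and HS6 summed, 52 without normal diet libraries 1 and 2 together, 94 and 57 on the normalized values with pseudocounts of 1 and 0.1, 15 without library 4 and HS8, and 12 to 765 when 1 library was left out. DESeq2 called 11 kidney genes and 145 interaction genes. With at least 10 counts in every library, 2 interaction genes were called and 1 of the 2 members still tested between the tissues, and leaving out 1 library gave 0 to 7 interaction genes. The causes of these changes were not tested, except that the stricter filter tests fewer members.

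Aqp1 and Aqp4 kept their call between the tissues wherever they were tested. Aqp11 was also called there with no filter (-0.52, edgeR adjusted p = 0.0484). Small uncalled effects changed sign. Aqp1 was at 0.011 in liver with at least 10 counts in every library and at -0.0061 in the interaction with no filter. On the normalized values with either pseudocount Aqp1 in kidney was at -0.016, and Avpr2 at 0.068 and 0.069. Gk in liver was at 0.094 without normal diet libraries 1 and 2 together. When 1 library was left out, the kidney log2 fold changes ran from -0.25 to 0.18 for Aqp1, -0.067 to 0.21 for Aqp2, -0.20 to 0.45 for Aqp6, -0.087 to 0.25 for Aqp7 and -0.25 to 0.17 for Avpr2, and that of Aqp1 in liver from -0.11 to 0.23. The interaction ran from -0.25 to 0.16 for Aqp1, -0.44 to 0.44 for Aqp4, -1.52 to 0.98 for Aqp8 and -0.69 to 1.38 for Aqp9. The ratio of Aqp2 to principal cell markers ran from -0.21 to 0.011, and the cause was not tested.

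Kidney libraries with the same number did not all deviate together (r of 0.53, 0.51 and -0.15 across genes), nor did those of the tissues (-0.29, 0.28 and -0.24), so the numbers were not used as pairs. With a replicate block 0 kidney genes and 0 members were called (459 genes at an unadjusted p under 0.05), and Aqp1 was at -0.016 and Avpr2 at 0.017. Between the tissues 7738 of 15172 genes were called with that block. Aqp1 (2.00, edgeR adjusted p = 0.00267) and Aqp4 (3.40, 0.000208) were among them, and Aqp11 (-0.61, 0.102) was not. The other called members, Aqp8, Aqp9 and Avpr2, entered through the tissue where they are high and had to differ.

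Kidney comparisons rest on 3 libraries against 3, and their intervals allow changes of about the size printed beside each member. Aqp8 and Aqp9 in kidney and Avpr2 in liver lie near the counting limit, so a diet effect on them was not detectable at this depth.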
